A study of Homo sapiens with 24 samples.

Results

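The genes described here are 76 of the 26346 genes in the count tables that were high where the transcription factor ERG was present in both of a pair of prostate cancer cell lines. They were chosen from the measured levels themselves. In VCaP cells both shERG libraries had to lie below 1 in 2 of the lower shCt library, and in LNCaP cells both ERG libraries had to lie above 1.5 times the higher Empty library. The mean had to reach 2 CPM (reads of a gene scaled to a common library total) in VCaP shCt and in LNCaP ERG cells. The rule was met by 85 genes, and 12 named genes, of which 9 met it, were left out, ERG itself among them. The VCaP condition was met by 838 of 13567 genes at that level (6.18%) and the LNCaP condition by 510 of 13443 (3.79%). Of the 838 genes of the VCaP condition, 85 also met the LNCaP condition (10.1%). Because these contrasts chose the genes, the values of shERG against shCt and of ERG against Empty are given as a description and carry no test.

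ERG is a DNA-binding factor of the ETS family, whose members recognise a GGAA core, and it is normally most abundant in endothelial cells. In many prostate cancers a chromosomal fusion places ERG under the androgen-driven TMPRSS2 promoter, as in VCaP, so that the luminal epithelium makes a factor it normally lacks. ETV1 is another ETS factor that is fused or overexpressed in prostate cancers, and BRG1 and ARID1A are subunits of the BAF chromatin remodelling complex, BRG1 being its ATPase.

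Polyadenylated RNA was sequenced in 24 libraries, in 12 groups of 2. VCaP cells carried a short hairpin RNA against ERG (shERG) or ARID1A (shARID1A) or the control hairpin shCt, with 8 days of selection. LNCaP cells carried an ERG, an ETV1 or an Empty construct, with 4 days of selection. SW13 cells, an adrenal carcinoma line that lacks BRG1 protein, carried ERG or Empty beside BRG1, its ATPase mutant BRG1-K785R or GFP, with 2 days of selection. The titles call the SW13 control GFP, while the protocol text of most samples names luciferase. Every group had been exposed to lentivirus for 48 h and put under drug selection, controls included, and each duplicate had been infected, selected and grown separately. The cells were populations of 3 lines, and the promoters driving the constructs are not stated in the labels.

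Libraries held 19754265 to 41996681 counted reads. All 9 luminal prostate markers reached a mean of 2 CPM in VCaP and in LNCaP. In SW13, of 8 adrenal cortex markers only CYP21A2 did (11.5 to 21.8 CPM), and CYP11B1, HSD3B2 and MC2R had no read in any SW13 library. The targeted genes moved as the labels say. ERG stood at 81 and 87.9 CPM with shERG, 242 and 238 CPM with shARID1A and 330.4 and 354 CPM with shCt, and at 996 and 958 CPM in LNCaP ERG cells, against 0.277 and 0.619 CPM with Empty. ETV1 stood at 3749 and 3626 CPM in ETV1 cells and at 568 and 590.5 CPM in Empty cells, so the LNCaP control already had a high ETV1 level. ARID1A stood at 71.9 and 75.3 CPM with shARID1A and 251 and 249.8 CPM with shCt.

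Across the 12 groups the 76 genes were highest in VCaP cells that kept ERG and lowest in SW13 cells. Levels between genes are compared as RPKM, reads scaled by gene length and by library total, as the authors deposited them. The median level of the 76 genes was 2.76 RPKM with shERG, 15.6 RPKM with shARID1A and 10.4 RPKM with shCt in VCaP. In LNCaP it was 5.88 RPKM with ERG, 4.61 RPKM with ETV1 and 2.8 RPKM with Empty. In SW13 it was lower in every group, at 1.15 RPKM with ERG and 0.848 RPKM with Empty beside BRG1, 0.374 RPKM with ERG and 0.306 RPKM with Empty beside BRG1-K785R, and 0.229 RPKM with ERG and 0.106 RPKM with Empty beside GFP. Of the 76 genes, 25 stayed under a mean of 1 CPM in all 6 SW13 groups, among them TFF1, S100P, SEMG2, MGP and IL2RG. The genes were somewhat short, with a median length of 2712 bases against 3263 bases for the 12363 genes at 2 CPM or more in both VCaP shCt and LNCaP ERG cells.

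**Figure D1:**
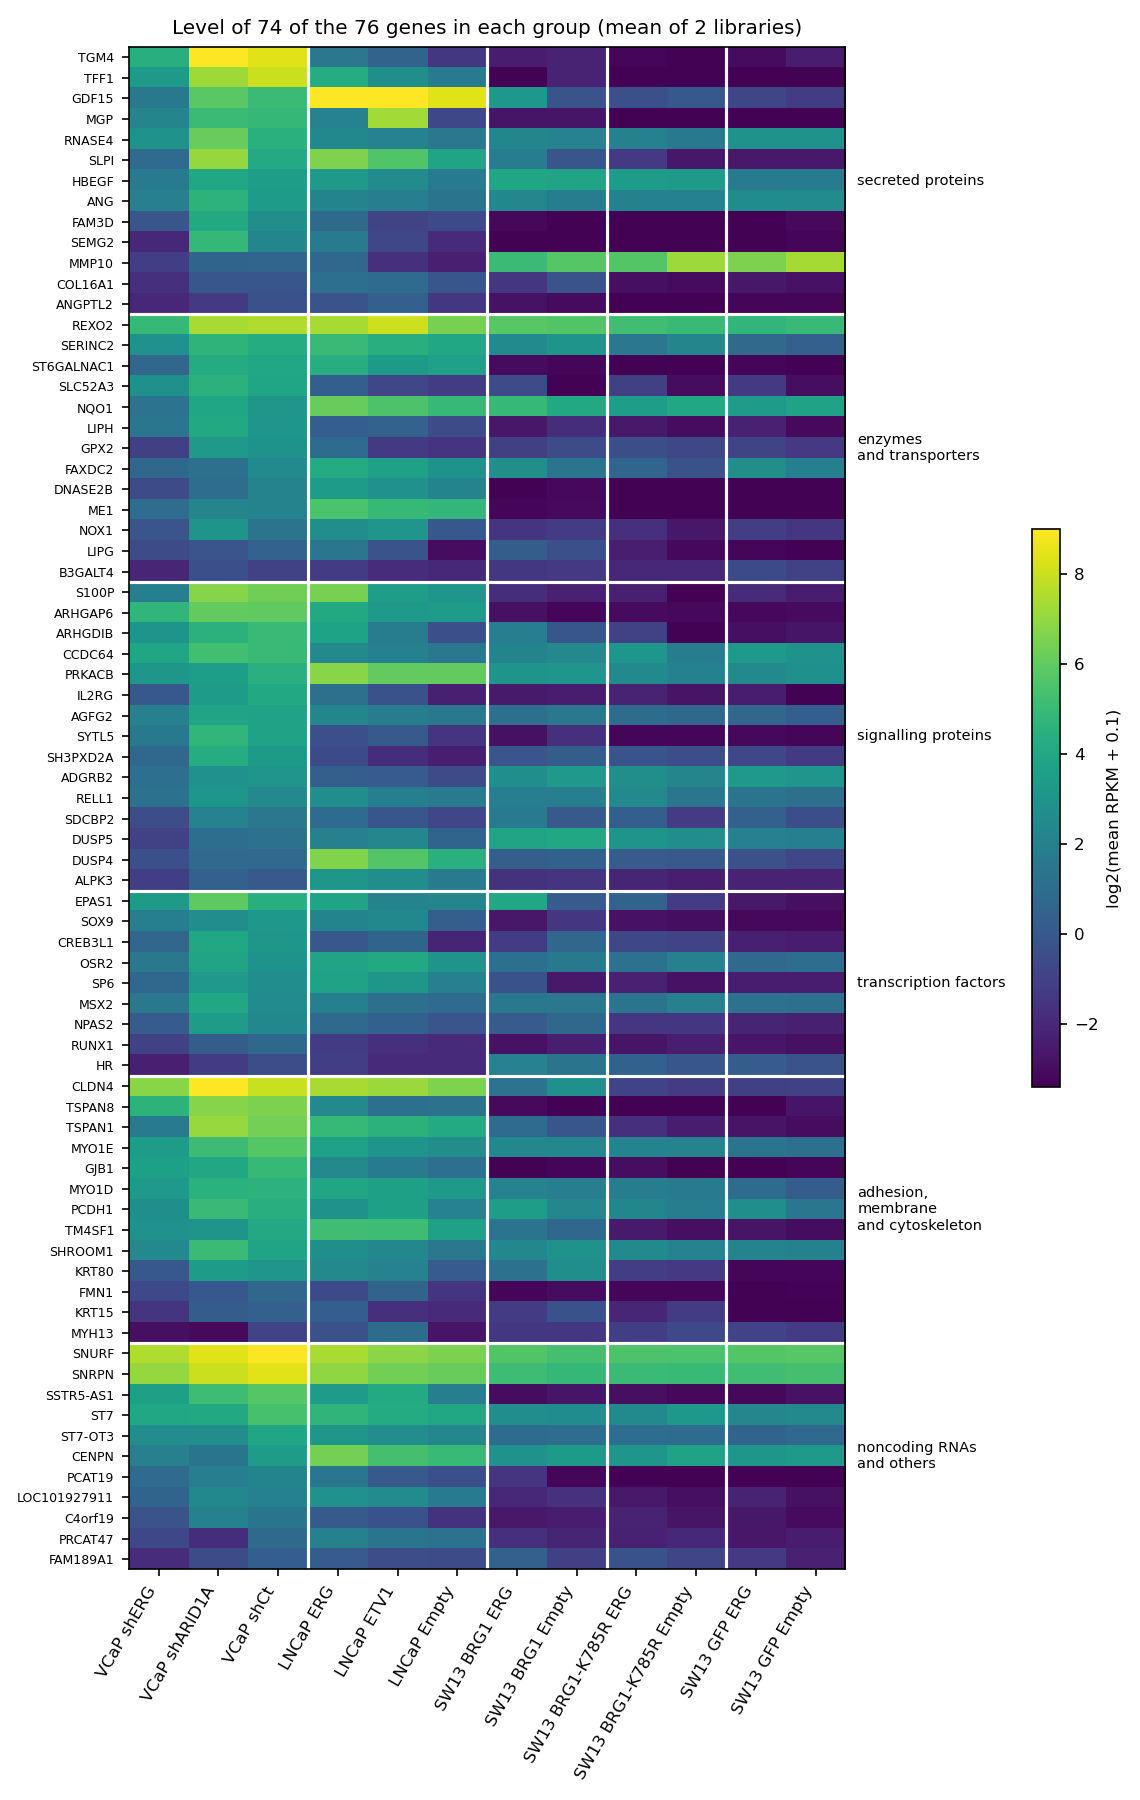
Mean level of 74 of the 76 genes (rows, grouped by role) in the 12 groups (columns) as log2 of the mean RPKM of 2 libraries plus 0.1. Colour runs from dark (low) to yellow (high), and the SW13 columns are dark for most secreted proteins while GDF15 is brightest in LNCaP.

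The drop with shERG was 2.1-fold to 31.6-fold (median 3.49-fold), and the gain with ERG in LNCaP was 1.53-fold to 100-fold (median 2.44-fold). A change of at least 4-fold was seen in 30 genes in VCaP, in 21 genes in LNCaP and in 14 genes in both. The 12 genes whose smaller change was largest were IL2RG, SEMG2, MYH13, S100P, TGM4, GPX2, SLPI, MGP, SH3PXD2A, TFF1, CREB3L1 and KRT80. Other genes named for their role were chosen after their values were seen. In bulk RNA, fewer cells with a transcript and less of it per cell cannot be told apart, which holds for every level given here.

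**Figure D2:**
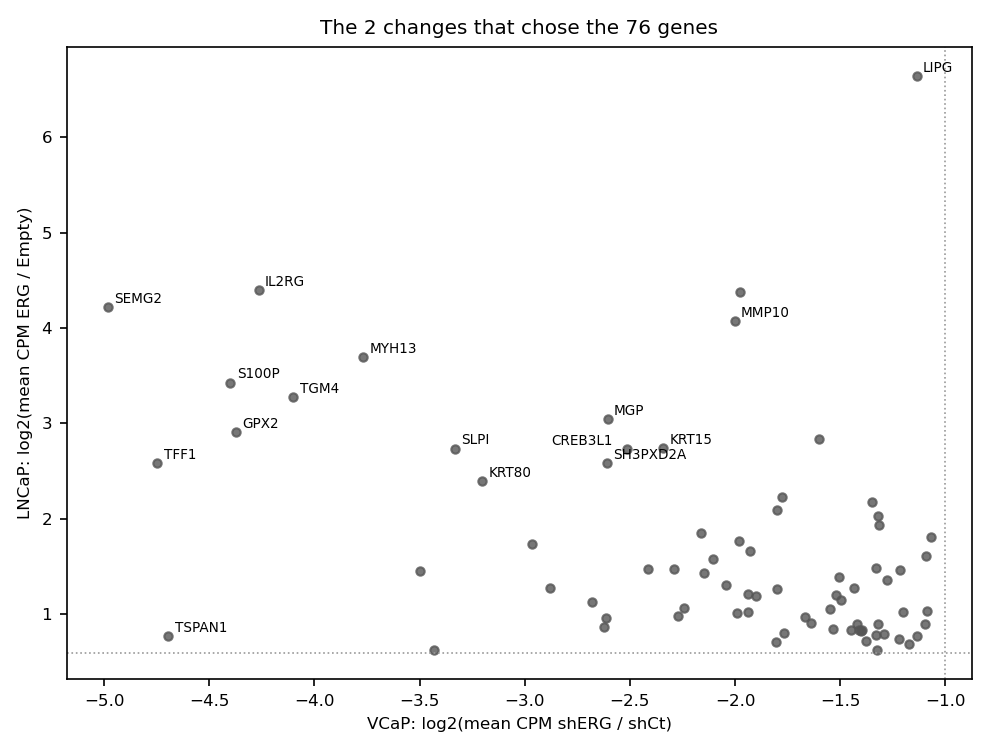
Each point is 1 of the 76 genes, with log2 of the ratio of mean CPM of shERG over shCt in VCaP (horizontal) and of ERG over Empty in LNCaP (vertical), and the dotted lines are the thresholds of the rule. SEMG2 and IL2RG are extreme on both axes, LIPG stands out in LNCaP and TSPAN1 in VCaP.

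Secreted proteins gave 13 of the 76 genes and had the largest median drop with shERG, 6.09-fold, with a median gain of 3.32-fold in LNCaP. Several are products of the prostate or of mucosal glands. TGM4, the prostate transglutaminase that cross-links seminal proteins, stood at 63.7 and 58.9 CPM with shERG and averaged 1051 ± 72.2 CPM with shCt (SD, n = 2). In LNCaP it stood at 6.02 and 10.3 CPM with ERG and 0.428 and 1.26 CPM with Empty. The groups lay far apart in both lines, but the LNCaP level was a small part of that in VCaP. SEMG2, a semenogelin of the semen coagulum, stood at 0.324 and 0.271 CPM with shERG and 10.5 and 8.3 CPM with shCt, the largest ratio of all 76 genes. It reached 4.39 and 7.87 CPM in LNCaP ERG cells, against 0.277 and 0.381 CPM with Empty, and reads may be shared with its neighbour and near copy SEMG1.

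The epithelial trefoil peptide TFF1 and the protease inhibitor SLPI were both at or under 5 CPM in shERG cells. TFF1 stood at 4.96 and 4.34 CPM with shERG and 117 and 133 CPM with shCt, and at 10.7 and 8.45 CPM with ERG and 1.23 and 1.95 CPM with Empty. SLPI stood at 1.23 and 0.89 CPM with shERG and 10.8 and 10.5 CPM with shCt, and at 51.2 and 62.8 CPM with ERG and 8.24 and 8.91 CPM with Empty. In SLPI the ERG level of LNCaP exceeded the shCt level of VCaP, unlike in TFF1. MGP, the matrix Gla protein that inhibits calcification, stood at 6.94 and 6.85 CPM with shERG and 40.2 and 43.7 CPM with shCt, and at 6.87 and 5.66 CPM with ERG and 0.781 and 0.738 CPM with Empty. GDF15, a stress-induced cytokine of the TGF-beta family, had the highest RPKM of the secreted genes in LNCaP and stood at 1278 and 987 CPM with ERG and 386 and 444 CPM with Empty, and was 11.3-fold lower with shERG in VCaP (3.47 and 3.64 CPM against 38.7 and 41.5 CPM). ANG and RNASE4, a pair of ribonucleases transcribed from a shared locus, can share reads and are not independent.

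**Figure D3:**
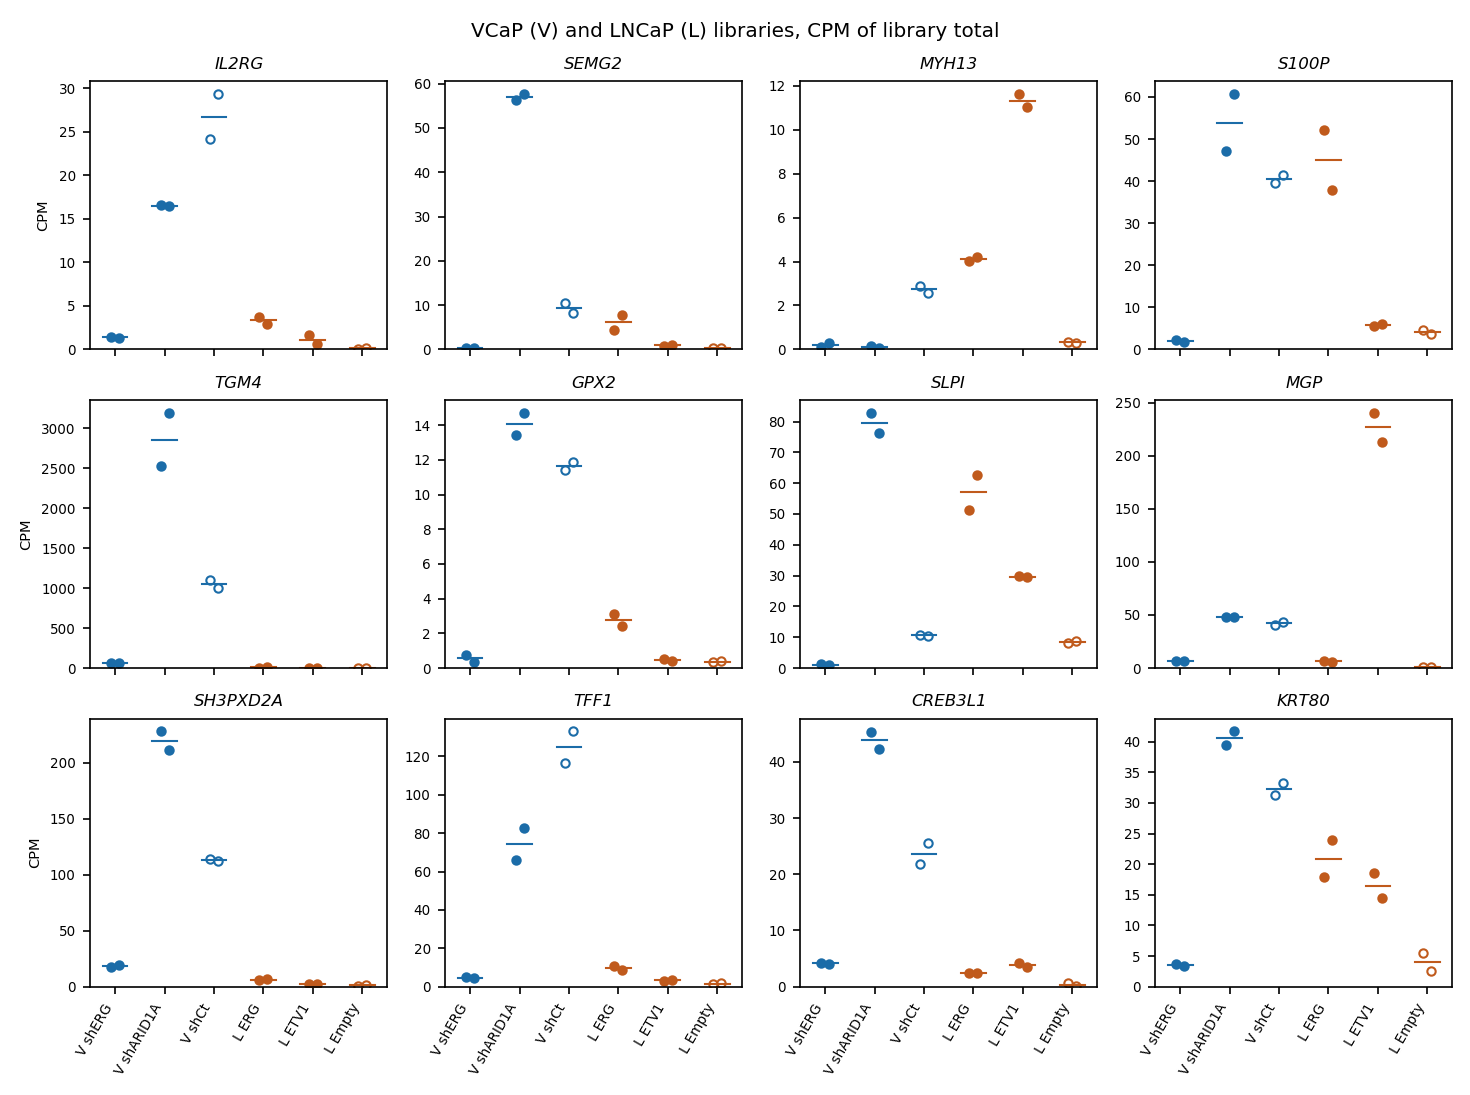
CPM of library total in each library (points) and the mean of 2 libraries (line) for the 12 genes with the largest smaller change, in VCaP (V, blue) and LNCaP (L, orange), with open points for shCt and Empty. The shERG points lie near 0 in most panels, the shARID1A points lie well above them except in MYH13, and MGP, MYH13 and CREB3L1 are highest with ETV1 among the LNCaP groups.

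Enzymes and transporters gave 15 genes, with median changes of 3.18-fold lower with shERG and 2.29-fold higher with ERG in LNCaP. GPX2, a glutathione peroxidase of gut and gland epithelium, stood at 0.778 and 0.348 CPM with shERG and 11.4 and 11.9 CPM with shCt. It stood at 3.1 and 2.42 CPM with ERG and 0.353 and 0.381 CPM with Empty in LNCaP. Other enzymes among the 76 were NQO1 (a quinone reductase), NOX1 (an NADPH oxidase), ME1 (malic enzyme) and the lipases LIPG and LIPH. LIPG, endothelial lipase, had the largest LNCaP ratio, at 11.2 and 10.7 CPM with ERG and 0.0756 and 0.143 CPM with Empty. Its VCaP values, 2.53 and 2.48 CPM with shERG and 5.09 and 5.93 CPM with shCt, lay just inside the threshold.

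Signalling proteins gave another 15 genes, with median changes of 3.94-fold lower with shERG and 2.78-fold higher with ERG in LNCaP. IL2RG, the common gamma chain of several interleukin receptors, stood at 1.46 and 1.32 CPM with shERG and 24.1 and 29.3 CPM with shCt, and at 3.74 and 2.9 CPM with ERG and 0.101 and 0.214 CPM with Empty. It is a gene of lymphocytes by its known role. A list of 5 immune markers summed to 2.27 to 28.0 CPM per VCaP library, most of it LYZ and CD14, and to 0.433 to 1.25 CPM in LNCaP. Their part in the IL2RG values was not tested. S100P, a calcium-binding protein made by many carcinomas, stood at 2.17 and 1.66 CPM with shERG and 39.5 and 41.5 CPM with shCt, and at 52.2 and 37.8 CPM with ERG and 4.66 and 3.71 CPM with Empty. SH3PXD2A, the TKS5 scaffold of invadopodia, stood at 17.9 and 19.2 CPM with shERG and 114 and 113 CPM with shCt. In LNCaP it stood at 5.89 and 6.78 CPM with ERG and 0.705 and 1.4 CPM with Empty. ARHGDIB, a dissociation inhibitor of small GTPases that is abundant in blood cells, stood at 16.2 and 17.4 CPM with ERG and 0.479 and 1.14 CPM with Empty, a 20.7-fold difference. Its VCaP values were 10.1 and 9.6 CPM with shERG and 38 and 39.3 CPM with shCt. The MAP kinase phosphatases DUSP4 and DUSP5 were both among the 76 genes, and DUSP4 reached 797 and 669 CPM with ERG in LNCaP, against 152 and 172 CPM with Empty.

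Transcription factors and cofactors gave 9 genes, EPAS1, RUNX1, SOX9, SP6, MSX2, OSR2, NPAS2, CREB3L1 and HR, with median changes of 3.83-fold lower with shERG and 2.18-fold higher with ERG in LNCaP. None of the 25 other ETS factors listed was among the 76. CREB3L1, a bZIP factor released from the endoplasmic reticulum membrane by cleavage, stood at 4.18 and 4.1 CPM with shERG and 21.9 and 25.5 CPM with shCt. In LNCaP it stood at 2.48 and 2.35 CPM with ERG and 0.68 and 0.0476 CPM with Empty, where the Empty libraries themselves differed. SOX9, a factor of prostate development, stood at 14.2 and 15 CPM with shERG and 35.5 and 37.4 CPM with shCt, and at 19.1 and 16.5 CPM with ERG and 3.93 and 5.41 CPM with Empty. EPAS1, the hypoxia-inducible factor HIF-2 alpha, stood at 53.3 and 50.4 CPM with shERG and 109 and 112 CPM with shCt, and at 62.3 and 82.9 CPM with ERG and 24.8 and 22.9 CPM with Empty.

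Adhesion, membrane and cytoskeletal proteins gave 13 genes, with median changes of 3.12-fold lower with shERG and 2.3-fold higher with ERG in LNCaP. The keratin KRT80 stood at 3.7 and 3.33 CPM with shERG and 31.3 and 33.3 CPM with shCt, and at 17.9 and 23.9 CPM with ERG and 5.49 and 2.48 CPM with Empty. MYH13, a myosin heavy chain known from extraocular muscle, stood at 0.13 and 0.271 CPM with shERG and 2.9 and 2.56 CPM with shCt, and at 4.03 and 4.22 CPM with ERG and 0.328 and 0.309 CPM with Empty. Both genes separated the groups in both lines, MYH13 from few reads. The tetraspanin TSPAN1 was 25.9-fold lower with shERG but 1.7-fold higher with ERG in LNCaP, where the Empty libraries already held 27.8 and 30.5 CPM. The remaining 11 genes were noncoding RNAs and others, with the smallest median changes (2.82-fold and 1.81-fold). They include the imprinted pair SNRPN and SNURF, read from a shared transcript, the pair ST7 and ST7-OT3, and SSTR5-AS1, an antisense transcript whose reads cannot be assigned because no source used here states the strand setting.

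The thresholds cut through a continuum. In VCaP the genes just inside were MSX2 and LIPG, with the higher shERG library 2.0036 and 2.0112 times below the lower shCt library, and the genes just outside were ITPKB (1.9975) and TSPAN15 (1.9961). In LNCaP the genes just inside were ST6GALNAC1 and OSR2, with the lower ERG library at 1.5018 and 1.5068 times the higher Empty library, and KRT8 (1.4899) and SPRED2 (1.4871) lay just outside. A factor of 2 in both lines would leave 42 of the 76 genes.

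The promoters of the genes were read for ETS motifs because the genes were chosen for following an ETS factor. RefSeq held an entry for 75 of the 76 genes (4 by an older symbol) and a promoter of 300 bases, 250 before and 50 after the start, for 56. A full ETS octamer, CCGGAAGT or CAGGAAGT on either strand, was present in 4 of the 56 promoters (7.14%) and in 2024 of all 27305 RefSeq promoters (7.41%), so its share was close to that of promoters at large. CCGGAAGT alone was in 1.79% of the genes' promoters and 4.44% of all, and CAGGAAGT in 5.36% and 3.2%. The tandem core GGAAGGAA was in 5.36% and 3.58%, and the AP-1 motif TGANTCA in 10.7% and 7.76%. The full androgen receptor motif was found in none of the 56 and in none of all 27305 promoters. The 4 promoters with an octamer are shown in RefSeq build GRCh38.p14, while the counts were made on hg19. They belong to ARHGDIB (chr12:14948847-14949146, minus strand), LIPH (chr3:185552539-185552838, minus strand), PRKACB (chr1:84077829-84078128, plus strand) and S100P (chr4:6693628-6693927, plus strand). Each is printed along the gene's strand with the octamer, which lies there as the reverse complement of the motif, in capitals.
ARHGDIB: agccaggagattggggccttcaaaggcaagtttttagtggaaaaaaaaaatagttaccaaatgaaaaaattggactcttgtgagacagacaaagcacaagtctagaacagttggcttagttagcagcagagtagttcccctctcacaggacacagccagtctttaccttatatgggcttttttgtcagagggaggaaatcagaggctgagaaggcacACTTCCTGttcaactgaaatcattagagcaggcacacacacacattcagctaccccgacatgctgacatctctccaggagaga
LIPH: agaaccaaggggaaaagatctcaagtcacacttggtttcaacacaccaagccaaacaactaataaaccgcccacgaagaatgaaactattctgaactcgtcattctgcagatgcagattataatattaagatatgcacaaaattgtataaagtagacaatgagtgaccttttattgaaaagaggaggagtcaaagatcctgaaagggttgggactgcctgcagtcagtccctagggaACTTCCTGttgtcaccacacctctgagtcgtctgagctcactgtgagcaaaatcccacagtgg
PRKACB: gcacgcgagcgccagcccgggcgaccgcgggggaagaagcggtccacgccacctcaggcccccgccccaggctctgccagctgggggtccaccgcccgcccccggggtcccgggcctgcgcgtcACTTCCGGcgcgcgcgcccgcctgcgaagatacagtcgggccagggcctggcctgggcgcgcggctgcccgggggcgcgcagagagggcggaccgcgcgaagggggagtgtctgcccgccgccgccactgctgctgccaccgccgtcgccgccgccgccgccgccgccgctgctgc
S100P: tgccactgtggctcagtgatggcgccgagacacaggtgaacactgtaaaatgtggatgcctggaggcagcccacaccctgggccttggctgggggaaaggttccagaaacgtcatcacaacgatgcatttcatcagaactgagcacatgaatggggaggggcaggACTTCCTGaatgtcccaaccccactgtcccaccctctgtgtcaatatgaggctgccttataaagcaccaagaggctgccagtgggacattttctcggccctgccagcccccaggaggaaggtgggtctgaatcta
Counting the base just before the start as position -1, the octamers begin at position -33 in ARHGDIB, -13 in LIPH, -126 in PRKACB and -85 in S100P. The RefSeq span of ARHGDIB runs from 14942015 to 14961601, so the start used for this minus-strand gene lies inside that span. ARHGDIB, LIPH and S100P carry the same 8 letters ACTTCCTG, and PRKACB, the beta catalytic subunit of protein kinase A, carries ACTTCCGG. These 4 genes differ in their LNCaP response, with ratios of ERG over Empty of 20.7 for ARHGDIB, 10.7 for S100P, 1.95 for LIPH and 1.71 for PRKACB. A match of letters does not show binding, and binding was not measured in these files.

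With ETV1 in LNCaP, 57 of the 76 genes were called higher and 1 lower at an adjusted p under 0.05 (two-sided quasi-likelihood test of edgeR with Benjamini-Hochberg adjustment over 16993 genes). Of all genes tested, 13.2% were called higher and 12.9% lower. The comparison uses the Empty libraries that entered the rule, which leans the count upward, so nothing is read from the count itself. The median log2 change was 0.79 for the 76 genes and 0.01 for all genes.

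MGP answered to ETV1 far more than to ERG. It stood at 241 and 213 CPM with ETV1 against 0.781 and 0.738 CPM with Empty (log2 change 8.26, SE 0.13, adjusted p = 2.94e-09), and at 6.87 and 5.66 CPM with ERG. MYH13 stood at 11.6 and 11 CPM with ETV1 against 0.328 and 0.309 CPM with Empty (log2 change 5.17, SE 0.17, adjusted p = 3.58e-07). Both ETV1 libraries of both genes lay above both ERG libraries. CREB3L1 rose to 4.21 and 3.57 CPM with ETV1, against 0.68 and 0.0476 CPM with Empty (log2 change 3.47, SE 0.56, adjusted p = 0.00239). That size rested on the Empty libraries, at 6.29 without Empty library 1 and 2.55 without Empty library 2. LIPG rose to 3.53 and 2.83 CPM with ETV1, against 0.0756 and 0.143 CPM with Empty (log2 change 4.85, SE 0.29, adjusted p = 7.8e-06), below its 11.2 and 10.7 CPM with ERG. The 1 gene called lower was ST6GALNAC1, the sialyltransferase that makes the sialyl-Tn antigen, at 28 and 27.2 CPM with ETV1 against 35.7 and 34.4 CPM with Empty (log2 change -0.31, SE 0.06, adjusted p = 0.00427). Without Empty library 1 its adjusted p was 0.0505, which leaves 0 genes called lower.

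Both ETV1 libraries lay above both ERG libraries in 14 of the 76 genes (23.4% of 13443 genes at 2 CPM or more with ERG did so) and below them in 57 (35.8%), and the 2 groups overlapped in 5. The ERG libraries were chosen to be high, which leans this count toward ERG. Among the 14 genes higher with ETV1 were MGP, MYH13, CREB3L1, SOX9, GDF15, DUSP5, NOX1, FMN1, OSR2, PCDH1 and SYTL5. NOX1 stood at 24.2 and 17.5 CPM with ETV1, 16.3 and 17 CPM with ERG and 2.09 and 2.57 CPM with Empty. On the other side, S100P stood at 5.66 and 6.09 CPM with ETV1, 52.2 and 37.8 CPM with ERG and 4.66 and 3.71 CPM with Empty, so that ETV1 cells lay close to the control. GPX2 behaved in the same way, at 0.501 and 0.408 CPM with ETV1, 3.1 and 2.42 CPM with ERG and 0.353 and 0.381 CPM with Empty. NOX1, S100P and GPX2 are shown as examples chosen after their values were seen.

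**Figure D4:**
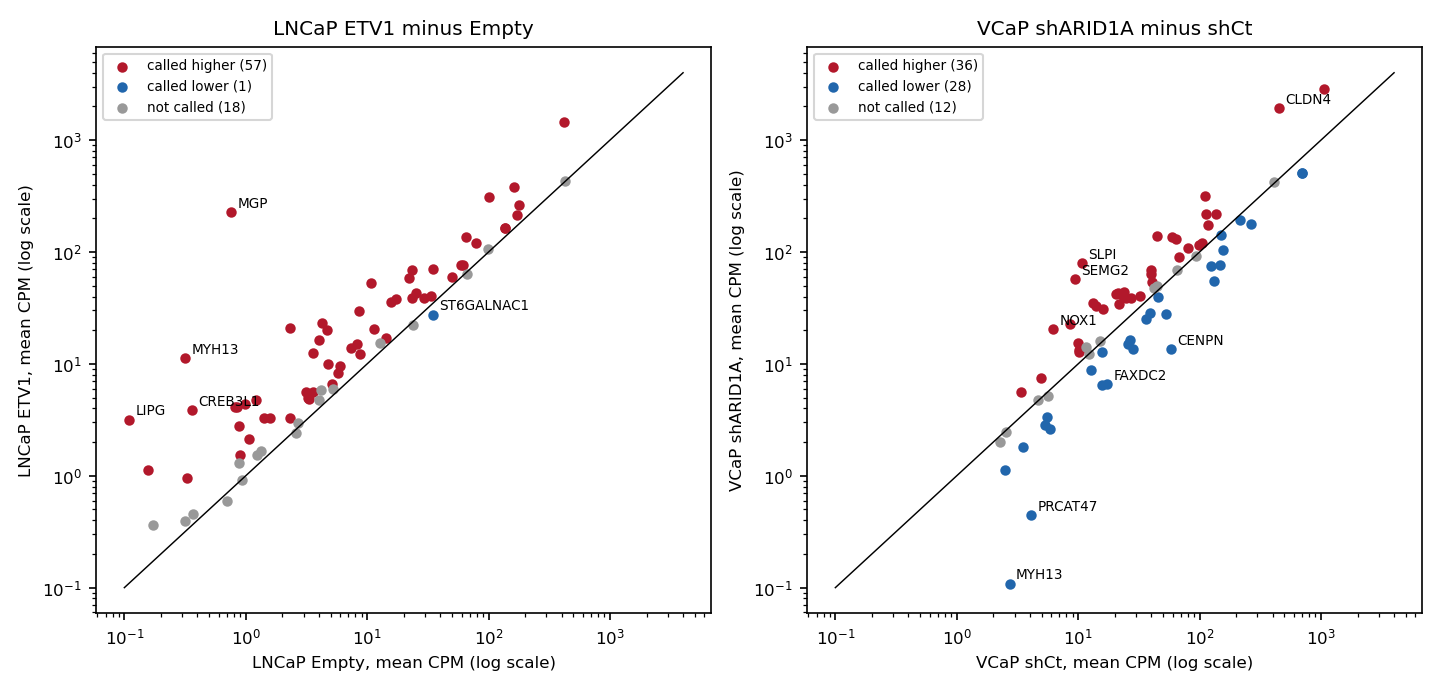
Mean CPM of the 76 genes on log axes, ETV1 against Empty in LNCaP (left) and shARID1A against shCt in VCaP (right), with the diagonal marking equal levels and colour the call at an adjusted p under 0.05. Most points lie above the diagonal on the left (57 called higher, 1 lower) and they spread to both sides on the right (36 higher, 28 lower).

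With shARID1A in VCaP, 36 of the 76 genes were called higher and 28 lower (same test over 16791 genes), against 32.9% and 33.2% of all genes tested, with a median log2 change of 0.11 for the 76 genes and 0.01 for all genes. The shCt libraries were chosen to be high, which leans this count downward. ERG itself was 0.702 times its shCt level. Secreted proteins were called higher in 8 and lower in 2 of 13 genes, and the noncoding RNAs and others in 2 and 9 of 11.

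SLPI stood at 82.8 and 76.2 CPM with shARID1A, against 10.8 and 10.5 CPM with shCt (log2 change 2.83, SE 0.08, adjusted p = 7.97e-18), while shERG libraries held 1.23 and 0.89 CPM. SEMG2 stood at 56.3 and 57.6 CPM with shARID1A, against 10.5 and 8.3 CPM with shCt (log2 change 2.53, SE 0.09, adjusted p = 3.69e-16). Both rose far above the control with one hairpin and stood far below it with the other. CLDN4, a claudin of epithelial tight junctions, rose to 1858 and 2007 CPM with shARID1A, against 454 and 452 CPM with shCt (log2 change 2.03, SE 0.05, adjusted p = 6.62e-19). NOX1 rose to 20.9 and 19.9 CPM, against 6.58 and 5.89 CPM with shCt (log2 change 1.65, SE 0.11, adjusted p = 2.08e-11).

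MYH13 had 5 and 1 reads with shARID1A (0.175 and 0.0429 CPM), against 2.9 and 2.56 CPM with shCt (log2 change -4.58, SE 0.46, adjusted p = 1.15e-08, and -5.91 without shARID1A library 1), about as low as with shERG. PRCAT47, a long noncoding RNA named for prostate cancer, fell to 0.419 and 0.472 CPM with shARID1A, against 4.46 and 3.75 CPM with shCt (log2 change -3.26, SE 0.29, adjusted p = 1.72e-09). CENPN, a centromere protein, fell to 12.4 and 14.9 CPM, against 60.1 and 56.4 CPM with shCt (log2 change -2.17, SE 0.09, adjusted p = 1.11e-15). All 28 cell cycle genes of a fixed list were called lower with shARID1A (median log2 change -2.78). All 28 were also called lower with shERG (median log2 change -1.49), where 37.4% of all genes tested were called lower. Their part in the CENPN change was not tested for either hairpin. FAXDC2, a membrane protein with a fatty acid hydroxylase domain, fell to 6.53 and 6.66 CPM, against 16.7 and 17.9 CPM with shCt (log2 change -1.46, SE 0.11, adjusted p = 1.32e-10). In CENPN, MYH13, PRCAT47, ST7-OT3 and TM4SF1 the shARID1A libraries did not both lie above both shERG libraries. The shERG libraries were chosen to be low, so the rule itself favours shARID1A levels above them.

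SW13 libraries entered no part of the rule, so that line gives an independent reading. Of the 76 genes, 60 had enough reads in SW13 to be tested over 17018 genes, and 16 had not. Among the 16 were IL2RG, ME1, MGP, S100P, SEMG2, ST6GALNAC1, TFF1 and TSPAN8. Counts are over the 60 genes and are no support on their own, since a gene that passed only through a group where it is high had to differ. ERG stood at 1859 and 2148 CPM beside BRG1, 1609 and 1585 CPM beside BRG1-K785R and 1474 and 1587 CPM beside GFP, with 0 to 6 reads in each Empty library. SMARCA4, the gene of BRG1, stood at 2149.7 and 2201 CPM in BRG1 Empty, 2180.2 and 2039 CPM in BRG1-K785R Empty and 31.4 and 25.5 CPM in GFP Empty cells. Ratios given with an interval, and lower bounds against a floor of 3 reads over a group, cover counting error only.

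Beside BRG1, ERG against Empty was called higher in 21 and lower in 15 of 60 genes, while 22.6% and 22.8% of all genes were called higher and lower. The median log2 change was 0.03 for these genes and near 0 for all genes.

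EPAS1 was the clearest gain. It stood at 80.3 and 86.9 CPM with ERG beside BRG1, against 6.02 and 4.62 CPM with Empty (log2 change 4.01, SE 0.12, adjusted p = 1.45e-22). GDF15 rose to 9.79 and 12.2 CPM, against 0.828 and 1 CPM with Empty (log2 change 3.63, SE 0.26, adjusted p = 3.79e-13). SP6, a zinc finger factor of tooth and skin, rose to 2.8 and 2.95 CPM, against 0.339 and 0.241 CPM with Empty (log2 change 3.32, SE 0.40, adjusted p = 4.53e-08). In each of these 3 genes both ERG libraries lay far above both Empty libraries. ARHGDIB rose to 4.56 and 4.33 CPM, against 0.602 and 1.49 CPM with Empty (log2 change 2.14, SE 0.32, adjusted p = 1.6e-06, and 2.91 without Empty library 2). SLC52A3, a riboflavin transporter, had 81 reads with ERG and none with Empty, at least 27.6-fold higher against a floor of 3 reads over the group (adjusted p = 5.85e-08). SLC52A3 passed the read filter only through ERG libraries, where it is high, so this call is no support for a gain. PCAT19, a long noncoding RNA, had 42 reads with ERG and 1 with Empty. The ratio was 42.9 with a 95% counting interval of 7.29 to 1730. It passed the read filter only through these ERG libraries, where it is high, so its call is no support for a gain.

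Other genes went the opposite way. CREB3L1 fell to 0.759 and 1.06 CPM with ERG beside BRG1, against 3.99 and 4.3 CPM with Empty (log2 change -2.13, SE 0.29, adjusted p = 4.99e-07). CLDN4 fell to 5.36 and 3.35 CPM, against 13.2 and 11.9 CPM with Empty (log2 change -1.49, SE 0.19, adjusted p = 1.66e-07). Both genes were lower with ERG beside BRG1 in SW13 and higher with it in LNCaP. Neither was called with ERG beside BRG1-K785R or GFP. SYTL5, a vesicle trafficking protein that binds Rab27, fell to 0.16 and 0.236 CPM, against 0.903 and 1.21 CPM with Empty (log2 change -2.33, SE 0.55, adjusted p = 0.000718). SOX9 fell to 0.32 and 0.197 CPM, against 1.28 and 0.884 CPM with Empty (log2 change -2.01, SE 0.50, adjusted p = 0.00134). By DESeq2 the adjusted p was 0.0528 for SYTL5 and 0.0594 for SOX9, and 9 genes in place of 15 were called lower. SYTL5 and SOX9 passed the read filter only through the BRG1 Empty libraries, where they are high, so their calls are no support for a fall.

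**Figure D5:**
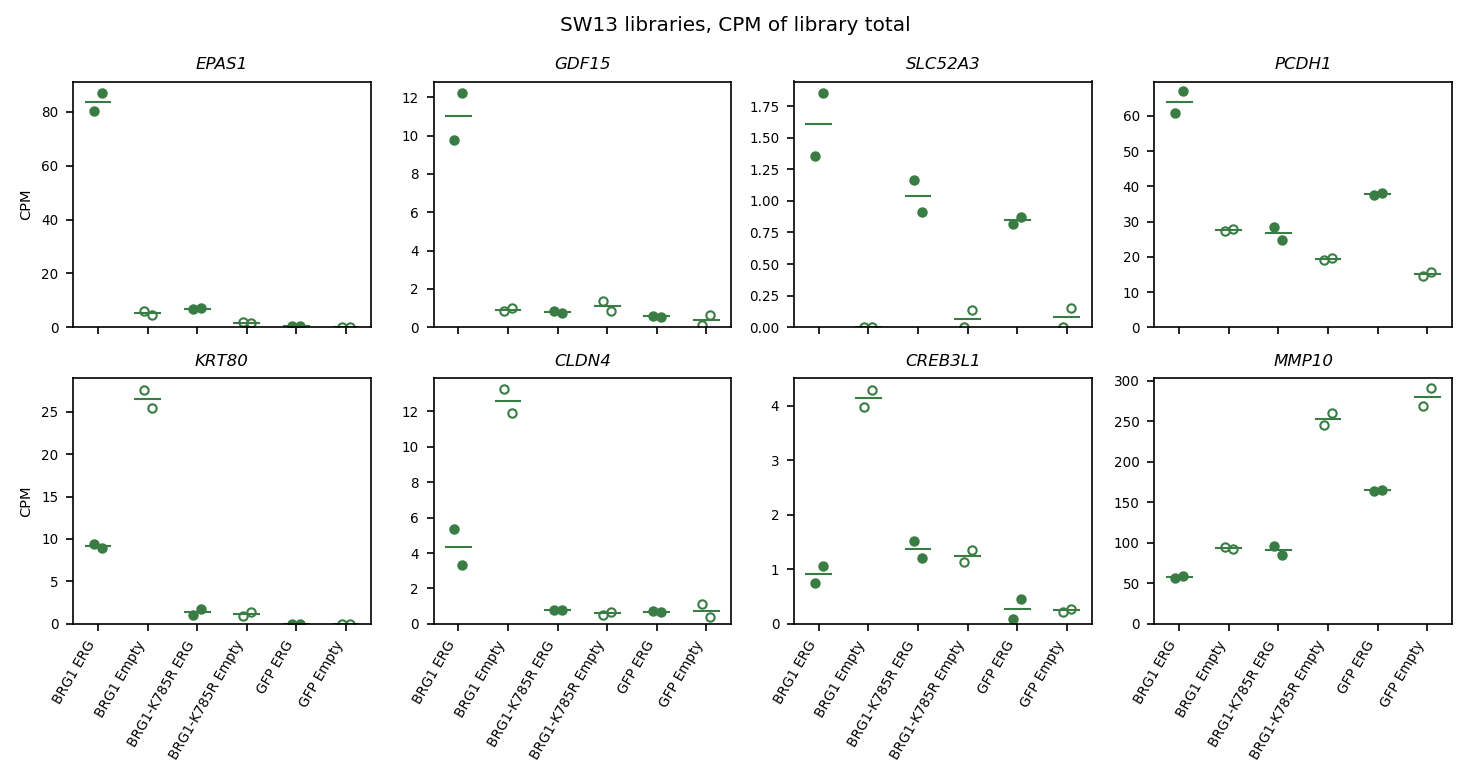
CPM of library total in each SW13 library (points) and the mean of 2 libraries (line) for 8 genes, with filled points for ERG and open points for Empty beside BRG1, BRG1-K785R and GFP. EPAS1 and GDF15 are high with ERG beside BRG1 and far lower elsewhere, KRT80, CLDN4 and CREB3L1 are highest with Empty beside BRG1, and MMP10 is lower with ERG than with Empty in all 3 backgrounds.

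Beside BRG1-K785R, ERG against Empty was called higher in 12 and lower in 8 of 60 genes, against 25.3% and 30.9% of all genes. The median log2 change was 0.15 for these genes and -0.01 for all genes. ARHGDIB had 19 reads with ERG and none with Empty, at least 7.8-fold higher against the floor (adjusted p = 0.000364). SLC52A3 had 41 reads with ERG and 3 with Empty, a ratio of 16.8 with an interval of 5.37 to 85 (adjusted p = 6.29e-05). For ARHGDIB these low counts show a gain but fix its size poorly. SLC52A3 passed the read filter only through ERG libraries, where it is high, so its call is no support for a gain. EPAS1 rose to 6.78 and 7.18 CPM, against 1.99 and 1.54 CPM with Empty (log2 change 1.78, SE 0.19, adjusted p = 1.62e-09). SDCBP2, a syntenin adaptor, rose to 1.77 and 2.27 CPM, against 0.714 and 0.498 CPM with Empty (log2 change 1.52, SE 0.34, adjusted p = 0.000254). CCDC64, an adaptor of vesicle transport, rose to 25.4 and 27.6 CPM, against 12.3 and 8.96 CPM with Empty (log2 change 1.12, SE 0.12, adjusted p = 9.14e-10). LIPG had 16 reads with ERG and 3 with Empty (ratio 6.57, interval 1.88 to 35.2, adjusted p = 0.0117), a call lost without BRG1-K785R Empty library 2 (adjusted p = 0.0689) or ERG library 2 (0.103).

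The largest fall beside BRG1-K785R was in MMP10, the matrix metalloproteinase stromelysin 2, at 96.7 and 85.1 CPM with ERG against 246 and 261 CPM with Empty (log2 change -1.66, SE 0.08, adjusted p = 3.54e-17). OSR2, a zinc finger factor of skeletal development, fell to 4.96 and 4.55 CPM, against 9.81 and 6.83 CPM with Empty (log2 change -1.01, SE 0.20, adjusted p = 5.16e-05). Log2 falls of 0.94 in SERINC2 and 0.88 in ST7 were also called (adjusted p = 4.05e-08 and 6.4e-09).

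Beside GFP, without BRG1, ERG against Empty was called higher in 10 and lower in 5 of 60 genes, against 12.6% and 13.5% of all genes. The median log2 change was 0.13 for these genes and near 0 for all genes. PCDH1, a protocadherin, rose to 37.6 and 38.1 CPM, against 14.6 and 15.6 CPM with Empty (log2 change 1.27, SE 0.10, adjusted p = 2.99e-11). FAXDC2 rose to 19.3 and 19.2 CPM, against 11.8 and 10.7 CPM with Empty (log2 change 0.73, SE 0.12, adjusted p = 4.75e-05). MYO1D, a class I myosin, rose to 11.8 and 11.1 CPM, against 7.26 and 6.39 CPM with Empty (log2 change 0.70, SE 0.12, adjusted p = 0.000107). These gains are modest but their libraries do not overlap. SLC52A3 had 20 and 21 reads with ERG, against 0 and 4 with Empty (log2 change 3.21, SE 0.70, adjusted p = 0.00112). Its log2 change was 2.31 without GFP Empty library 1 and 7.34 without GFP Empty library 2, so its size is poorly fixed. As SLC52A3 passed the read filter only through ERG libraries, its call is no support for a gain. MMP10 fell to 164 and 165 CPM, against 269 and 292 CPM with Empty (log2 change -0.82, SE 0.08, adjusted p = 3.2e-09).

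Of the 10 genes named beside GFP, 5 lost the call when some library was left out. FAM189A1 (log2 change 1.36, adjusted p = 0.00421), SDCBP2 (0.84, adjusted p = 0.0264), NQO1 (-0.34, adjusted p = 0.0079), PRKACB (-0.31, adjusted p = 0.00643) and REXO2 (-0.30, adjusted p = 0.00718) were each lost without GFP Empty library 2 and without GFP ERG library 1. The change of PRKACB was then much the same, at -0.30 and -0.31, with adjusted p of 0.0638 and 0.0558. Without GFP Empty library 2 the counts were 4 higher and 1 lower, without GFP ERG library 1 they were 6 and 1, without GFP Empty library 1, 6 genes were called higher, and without GFP ERG library 2, 3 genes were called lower.

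In all 3 SW13 backgrounds FAXDC2, HR, PCDH1, SDCBP2 and SLC52A3 were called higher and CENPN and MMP10 lower with ERG, 5 and 2 of the 60 genes, while 2.07% and 2.69% of all genes tested were. SLC52A3 passed the read filter only through ERG libraries, so its calls are no support for a gain. HR, the corepressor hairless, stood at 23.3 and 22.8 CPM with ERG and 14.4 and 13 CPM with Empty beside BRG1, and at 6.26 and 5.38 CPM with ERG and 4.59 and 3.76 CPM with Empty beside GFP. CENPN stood at 40.6 and 36.8 CPM with ERG and 52.4 and 54.4 CPM with Empty beside BRG1. In these backgrounds 27, 21 and 20 of the 28 cell cycle genes were called lower with ERG beside BRG1, BRG1-K785R and GFP, and their part in the CENPN change was not tested. CENPN and MMP10 thus moved in SW13 against their direction in the prostate lines. A call in none of the 3 comparisons was found for 16 of the 60 genes and for 22.4% of all genes, the 16 including DUSP4, DUSP5, HBEGF, NOX1, RUNX1 and TGM4.

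Whether the ERG effect depended on BRG1 was tested as the difference of the effects. Against GFP, the effect beside BRG1 was called higher in 12 and lower in 11 of 60 genes (19.1% and 18.7% of all genes). Against BRG1-K785R it was called higher in 16 and lower in 8 (25.8% and 20.4% of all genes), and with library totals as the scale higher in 8. GDF15, EPAS1 and SP6 gained more with ERG beside BRG1 in both tests. The GDF15 difference was 4.29 on the log2 scale against BRG1-K785R (SE 0.47, adjusted p = 1.18e-08), where it stood at 0.861 and 0.758 CPM with ERG and 1.35 and 0.86 CPM with Empty. Against GFP, where it stood at 0.61 and 0.543 CPM with ERG and 0.134 and 0.627 CPM with Empty, the difference was 3.14 (SE 0.62, adjusted p = 0.000154) and was 1.59 without GFP Empty library 2 (adjusted p = 0.288) and 3.83 without GFP Empty library 1. The EPAS1 difference was 2.24 against BRG1-K785R (SE 0.25, adjusted p = 1.32e-08) and 3.02 against GFP (SE 0.75, adjusted p = 0.00182). In GFP cells EPAS1 had 9 and 8 reads with ERG and 6 and 2 with Empty, and the difference was 2.00 without GFP Empty library 1 (adjusted p = 0.246) and 3.66 without GFP Empty library 2.

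SP6 differed by 3.23 against GFP (SE 0.75, adjusted p = 0.00104), and by 2.32 without GFP Empty library 2 (adjusted p = 0.125), 4.35 without GFP ERG library 1 and 2.62 without GFP ERG library 2. It differed by 2.31 against BRG1-K785R (SE 0.87, adjusted p = 0.0289). The call against BRG1-K785R was lost by DESeq2 (adjusted p = 0.0607), with library totals as the scale (0.055) and without each of 4 libraries, at up to 0.126. NQO1, which rose beside BRG1 (84.6 and 74.2 CPM with ERG, 45.6 and 45.7 CPM with Empty) and fell beside BRG1-K785R (29.9 and 31 CPM with ERG and 46.7 and 39.6 CPM with Empty), differed by 1.54 (SE 0.13, adjusted p = 5.73e-11) and was called against GFP too, at 1.19. This is a change of direction between the ATPase mutant and BRG1 itself. SLC52A3 differed by 5.02 against GFP (SE 1.99, adjusted p = 0.0462), a value that rests on 0 reads in BRG1 Empty cells and is no measure of size. Its adjusted p ranged up to 1 over 19 alternatives, and it was lost in 7 of them.

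Of the 8 genes called with a lower ERG effect beside BRG1 than beside BRG1-K785R, the 4 with the largest difference follow. CREB3L1 differed by -2.09 against BRG1-K785R (SE 0.46, adjusted p = 0.000406), and CLDN4 differed by -1.69 (SE 0.49, adjusted p = 0.00521). KRT80 stood at 9.43 and 8.94 CPM with ERG and 27.6 and 25.5 CPM with Empty beside BRG1, and at 1.06 and 1.72 CPM with ERG and 0.902 and 1.36 CPM with Empty beside BRG1-K785R, a difference of -1.62 (SE 0.33, adjusted p = 0.000187). CCDC64 rose with ERG beside BRG1-K785R and not beside BRG1 (14.2 and 13.6 CPM with ERG, 16.1 and 16.2 CPM with Empty), a difference of -1.29 (SE 0.16, adjusted p = 1.16e-07), and it was called lower against GFP too, at -0.47. These 4 calls held in all 18 alternatives.

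Against GFP, the genes with the most negative difference of the 11 called lower were LIPH (-3.97, SE 1.30, adjusted p = 0.016), CREB3L1 (-2.18, SE 0.73, adjusted p = 0.0185), COL16A1 (-1.84, SE 0.69, adjusted p = 0.0337) and CLDN4 (-1.37, SE 0.47, adjusted p = 0.02). LIPH had 0 and 8 reads with ERG and 11 and 13 with Empty beside BRG1, and 7 and 6 reads with ERG against 2 and 0 with Empty beside GFP, so its difference rests on few reads. LIPH passed the read filter only through the BRG1 Empty libraries, which leans its difference downward, so its call is no support on its own. Each of these 4 calls was lost without at least 1 GFP library, CREB3L1 without GFP ERG library 2 (-0.51, adjusted p = 0.817) and GFP Empty library 1 (adjusted p = 0.0557). Without GFP ERG library 1 the CREB3L1 difference was -2.94. The CLDN4 difference was -2.23 without GFP Empty library 1, and that of LIPH ran from -8.89 without BRG1 ERG library 2 to -2.98 without GFP Empty library 2. Smaller differences had lower adjusted p, such as SERINC2 (-0.999, SE 0.18, adjusted p = 4.61e-05) and SH3PXD2A (-1.05, SE 0.22, adjusted p = 0.000388), chosen after their values were seen. Without GFP ERG library 1 the count of genes with a lower effect was 6, and without GFP ERG library 2 it was 7.

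Many of the 60 genes were higher with BRG1 alone in SW13. In Empty cells, BRG1 against GFP was called higher in 34 and lower in 9 of 60 genes, against 32.2% and 30.2% of all genes. The median log2 change was 0.97 for these genes and 0.03 for all genes. BRG1 against BRG1-K785R was likewise called higher in 34 and lower in 9, against 32.6% and 34.1% of all genes, with medians of 0.56 and 0.01. Adhesion, membrane and cytoskeletal genes were called higher in 9 of 10 genes tested against GFP. Against BRG1-K785R they were called higher in 7 and lower in 1 of 10. The noncoding RNAs and others were called higher in 2 and lower in 2 of 10 against GFP, and in 1 and 4 against BRG1-K785R.

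KRT80 had 1367 reads in BRG1 Empty cells and 1 in GFP Empty cells, a ratio of 1270 with a counting interval of 228 to 50400 (adjusted p = 1.29e-21). The basal keratin KRT15 had 70 reads and none, at least 21.7-fold higher (adjusted p = 2.23e-07). LIPG had 143 reads and none, at least 44.4-fold higher. These genes were silent or nearly so without BRG1. TM4SF1, a membrane protein of the transmembrane 4 family, had 142 reads in BRG1 and 2 in GFP Empty cells. Its ratio was 66.2 with an interval of 18 to 552. Outside the BRG1 groups LIPG and TM4SF1 had few reads, so they passed the read filter through groups where they are high. Their calls against either control are therefore no support on their own. Against BRG1-K785R, TM4SF1 had a ratio of 44.8, LIPG a ratio of 45.1 and ARHGDIB was at least 16.7-fold higher (adjusted p = 1.37e-06). TGM4 had 17 reads and none (at least 5.36-fold, adjusted p = 0.00895), of which 15 were in BRG1 Empty library 2, and without that library the adjusted p was 0.236.

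Among the genes lower with BRG1 than with GFP were MMP10 (94.9 and 92.9 CPM with BRG1, 269 and 292 CPM with GFP, log2 change -1.71, SE 0.08, adjusted p = 1.85e-18) and the pair RNASE4 and ANG. RNASE4 stood at 8.69 and 7.96 CPM with BRG1 and 16.3 and 13.4 CPM with GFP (log2 change -0.96, SE 0.13, adjusted p = 2.26e-07). Against BRG1-K785R, MMP10 (log2 change -1.64), MYH13 (-1.18), ST7 (-0.81) and MSX2 (-0.70) were lower with BRG1, with adjusted p of 6.4e-18, 6.26e-05, 1.14e-08 and 7.46e-05. With library totals as the scale, 5 in place of 9 genes were called lower with BRG1 than with BRG1-K785R.

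KRT80, CLDN4, CREB3L1, SOX9, SYTL5, COL16A1, KRT15 and NPAS2 were called higher with BRG1 than with GFP in Empty cells and lower with ERG than with Empty beside BRG1. The comparisons share the BRG1 Empty libraries, which leans them toward opposite signs, so nothing is read from their number. SOX9 and SYTL5 passed the read filter only through those libraries, so their calls are no support on their own. COL16A1, a fibril-associated collagen, stood at 1.56 and 1.5 CPM with ERG and 3.69 and 4.78 CPM with Empty beside BRG1, and at 0.325 and 0.376 CPM with ERG and 0.312 and 0.196 CPM with Empty beside GFP. ERG beside BRG1 thus left it between the BRG1 Empty and the GFP levels. EPAS1 and ARHGDIB rose in both comparisons, and EPAS1 stood at 80.3 and 86.9 CPM with BRG1 and ERG, 6.02 and 4.62 CPM with BRG1 alone and 0.267 and 0.0784 CPM with neither.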

How the data were processed

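Polyadenylated RNA of VCaP, LNCaP and SW13 cells was read as 75 base single-end reads, per the labels' protocols. The authors deposited per library read counts per gene, a gene length (the other column) and RPKM values. The deposited counts were tested. The RPKM values as deposited equal the counts divided by library total and gene length, and were used for levels between genes. Per the submitters' processing notes, STAR 2.3.1 and hg19 were used. No source used here states how reads were counted, by which annotation, or with which strand option.

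CPM is a count scaled to a common library total. A separate model was fitted for each line, holding all its groups (edgeR 4.0.16 in R 4.3.3, TMM scaling, filterByExpr, two-sided quasi-likelihood F test, Benjamini-Hochberg over all genes tested, threshold 0.05), with 3, 3 and 6 residual degrees of freedom and a common biological coefficient of variation of 0.0394, 0.0608 and 0.0571 in VCaP, LNCaP and SW13. The 76 genes, the gene lists and the tests were chosen with earlier results of these data known.

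Named were the 12 genes with the largest smaller change of the rule, in each SW13 ERG comparison up to 6 called higher and 4 called lower by log2 change, in each other comparison up to 4 and 4, the genes nearest the thresholds and the targets. Open reading frame, clone and LOC names were left out of naming, and a few genes are not reported here by name. The lists held ERG tumour genes, ETS factors, endothelial, cell cycle, androgen receptor target and interferon-stimulated genes, and were described by counts only. Alternatives were other scaling (library totals and DESeq2's size factors), no filter, DESeq2 1.42.0, only the compared groups, the replicate number as a block, each library left out and, chosen after seeing the data, SW13 without both BRG1-K785R Empty libraries. Promoters came from RefSeq GRCh38.p14. Figures and tables were made with Python 3.11.15 and matplotlib 3.10.9.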

Additional observations from a re-analysis of the deposited data

Results flagged for a closer look

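The ERG effect in SW13 differed between cell backgrounds, by a test of the difference itself, for the genes named from those comparisons (edgeR's quasi-likelihood test, adjusted over all genes). Differences are log2 effects beside BRG1 minus those beside the other construct. Against GFP they were 5.02 for SLC52A3, 3.23 for SP6, 3.14 for GDF15, 3.02 for EPAS1, -3.97 for LIPH, -2.18 for CREB3L1, -1.84 for COL16A1 and -1.37 for CLDN4. Each of these 8 calls was lost when some library was left out. Against BRG1-K785R they were 4.29 for GDF15, 2.31 for SP6, 2.24 for EPAS1, 1.54 for NQO1, -2.09 for CREB3L1, -1.69 for CLDN4, -1.62 for KRT80 and -1.29 for CCDC64. Of these 8 calls, only that of SP6 was lost under an alternative. Among the genes called against GFP, SLC52A3 passed the read filter only through ERG libraries and LIPH only through BRG1 Empty libraries. The calls of SLC52A3 and LIPH are therefore no support on their own.

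Of the genes named, GDF15, EPAS1, SP6 and NQO1 were called higher and CREB3L1, CLDN4 and CCDC64 lower in both differences, with the losses given. FAXDC2, SNRPN and SNURF (higher) and ADGRB2, SHROOM1 and SH3PXD2A (lower) were also called in both, and SERINC2 was called in opposite directions, at -0.999 against GFP and 0.41 against BRG1-K785R. The differences share the BRG1 libraries, so they are not independent. SMARCA4 stood at 1959 and 2264 CPM in BRG1 ERG cells and at 1417 and 1429.7 CPM in BRG1-K785R ERG cells. ERG itself also stood higher beside BRG1 than beside BRG1-K785R or GFP, at the levels given above. The part of these gaps in the differences was not tested.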

How the results depend on the processing

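Of 326 calls on single genes, 5246 values under alternatives were obtained, of which 4946 kept their direction and their side of the threshold, 300 kept the direction without a call and 0 turned round. Among the counts, library totals as the scale gave 8 genes in place of 16 with a higher ERG effect beside BRG1 than beside BRG1-K785R, and 5 in place of 9 lower with BRG1 than BRG1-K785R in Empty cells. DESeq2 gave 9 in place of 15 called lower with ERG beside BRG1 and 6 in place of 10 called higher beside GFP. Leaving out each library in turn gave 4 to 10 higher and 1 to 7 lower with ERG beside GFP, 6 to 11 with a lower effect beside BRG1 than GFP, and 0 to 1 lower with ETV1. The cause was not tested. Of the genes chosen by the rule, 42 remained with a factor of 2 in both lines. The fold conditions of the rule can only ease when a library is left out, which leans that count upward. Leaving out a library gave 79 to 93 genes, CPM with TMM scaling 93 and a mean of 5 CPM 57.

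Library totals in place of TMM moved the median of all genes by 0.18 for shERG and for ERG beside BRG1-K785R, by -0.23 for the difference against BRG1-K785R, and by 0.13 and 0.21 for BRG1 in Empty cells against GFP and BRG1-K785R. The share of calls that were higher was 40% with library totals (50.5% with TMM) for ETV1, 62% (48.3%) for ERG beside GFP, 64.5% (45.1%) beside BRG1-K785R, 37.1% (50.4%) and 29.9% (55.8%) for the differences against GFP and BRG1-K785R, and 64% (51.6%) and 66% (48.9%) for BRG1 in Empty cells against GFP and BRG1-K785R.

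Same-numbered libraries did not deviate together (correlations -0.009 to 0.036 in VCaP, -0.08 to -0.02 in LNCaP and -0.098 to 0.12 in SW13), and the labels describe independent duplicates. With the replicate number as a block, the counts higher and lower were 35 and 28 for shARID1A, 54 and 1 for ETV1 and 21 and 16 for ERG beside BRG1, and the other counts did not move. With 2 libraries per group, small changes of low genes could not be measured well.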

Other observations

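ARHGDIB and SOX9 were among 23 genes known to be high in ERG-positive prostate tumours, CENPN among 25 androgen receptor targets and KRT15 among the basal markers. None of the 76 was in the lists of ETS factors, endothelial genes, cell cycle genes or interferon-stimulated genes.

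With ERG beside BRG1 in SW13, 13 of 17 endothelial genes tested were called higher and 1 lower (22.6% and 22.8% of all genes tested), against 4 and 1 beside BRG1-K785R (25.3% and 30.9% of all genes) and 3 called higher beside GFP (12.6% of all genes). Interferon-stimulated genes were called higher in 16, 9 and 4 of 20 with ERG beside BRG1, BRG1-K785R and GFP, and all 20 were called higher with BRG1 in Empty cells against either control (median log2 change 4.95 against BRG1-K785R and 4.48 against GFP), where 32.6% and 32.2% of all genes were called higher against BRG1-K785R and GFP. ERG tumour genes were called higher in 9 and lower in 6 of 18 with ERG beside BRG1. Androgen receptor targets were called higher in 5 and lower in 5 of 16 with ERG beside BRG1 and beside BRG1-K785R, and in 2 and 3 beside GFP. Of all genes in LNCaP, 15.4% were called higher and 14.3% lower with ERG, and 13.2% and 12.9% with ETV1. In LNCaP, ERG tumour genes were called higher in 9 and lower in 4 of 22 with ERG and in 4 and 3 with ETV1. Androgen receptor targets were called higher in 2 and lower in 11 of 25 with ERG, and in 3 and 15 with ETV1. ETS factors other than ERG were called higher in 1 and lower in 3 of 23 with ERG in LNCaP, and in 6 and 13 of 21 with ERG beside BRG1 in SW13.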
